A study of Homo sapiens with 2 samples.

Results

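Transcripts of 10 genes of the replicative helicase and its loading were followed in BHT101 cells, a human line from an anaplastic thyroid carcinoma: MCM2, MCM3, MCM4, MCM5, MCM6, MCM7, MCM10, CDC45, GINS2 and CDC6. They were taken by gene symbol from the deposited count tables, 10 of 58735 genes listed. The rule used no measured value, but the list was proposed with earlier results of these data known. The study, whose title also names the splicing factor U2AF1, compared 1 library of control cells with 1 library of cells overexpressing SETDB2, a SET domain protein of the family that methylates histone H3 at lysine 9. Both libraries are labelled as parts of an overexpression experiment in the same line and were made from total RNA. What the control cells carried, the vector, the time since its introduction and whether the cells were a clone or a pool were not given in the sources used here. With 1 library per condition there was no replicate and no test, and every interval below is an exact 95% interval for counting error only.

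Before S phase, the origin recognition complex and CDC6 load rings of MCM2 to MCM7 onto DNA, with CDT1 as the carrier of the rings. This step is called licensing. At the start of S phase kinases act on the loaded rings, CDC45 and the GINS complex join them to form the active helicase, and MCM10 is needed for that helicase to begin unwinding. The genes are transcribed in dividing cells, many of them under E2F factors around the passage from G1 to S phase, and MCM proteins are used as markers of proliferation in tumour pathology.

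The control library held 33572025 counts and the SETDB2 library 34053348. SETDB2 itself had 507 and 1370 counts (control first, here and throughout) and a log2 ratio at 1.43 (1.28 to 1.58), in the direction of the label. The 5 epithelial markers summed to 432 and 452 FPKM (reads scaled to gene length and library size), nearly all of it from keratins 8, 18 and 19. EPCAM was at 5.79 and 6.45 FPKM, and CDH1, which encodes E-cadherin, at 0.579 and 0.469. Among thyroid markers NKX2-1 had a count of 0 in both libraries, TG had 6 and 2 counts, TSHR 2 and 0, FOXE1 21 and 11 and PAX8 42 and 30. The thyroid origin of the line was thus hardly visible in these markers. Leukocyte markers summed to 0.632 and 0.429 FPKM and endothelial markers to 0.442 and 0.299. Of the 4 fibroblast markers, LUM alone gave 15.4 and 20.9 FPKM, while DCN, PDGFRB and THY1 had at most 17 counts each.

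The deposited FPKM values gave the same order of levels in both libraries. MCM7 was highest, at 166 FPKM in the control and 160.2 with SETDB2. MCM4 followed at 109 and 136 FPKM, and MCM3 at 55.3 and 60.4 FPKM. These subunits stood well above the remaining subunits of the ring. MCM6 was at 25.6 and 30.5 FPKM, MCM2 at 21.6 and 22.6, and MCM5 at 15.7 and 16.5. The factors that act on the ring were lower still. CDC45 was at 13.3 and 15.0 FPKM, CDC6 at 10.2 and 12.997, GINS2 at 7.47 and 8.77, and MCM10, the lowest, at 5.89 and 6.54. In neither library did the counting intervals of neighbours in this order overlap, in 0 of 9 pairs. The median over the 14518 genes that passed the count filter (50 or more counts over both libraries together and 1 or more CPM in either) was 4.89 FPKM in the control, so each of the 10 genes lay above the middle of the expressed genes. The gene lengths in the tables enter these levels. With the longest annotated transcript as length, MCM2 came before MCM6 in the control library, at 987 and 955 counts per kilobase, and MCM7 and MCM4 came close together in the SETDB2 library, at 7702 and 7680.

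**Figure D1:**
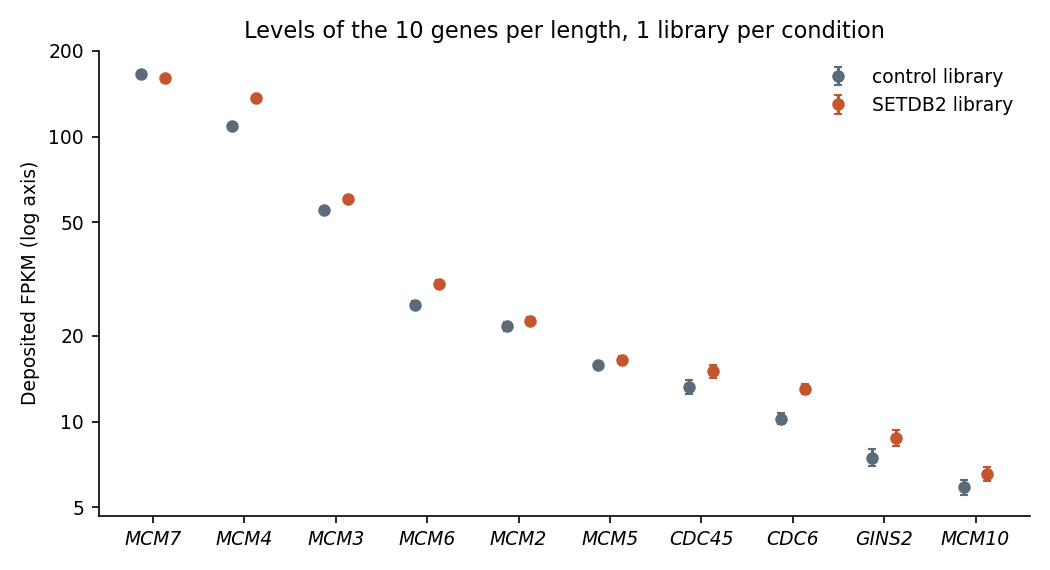
Deposited FPKM on a log axis for each of the 10 genes in the control library (grey) and the SETDB2 library (orange), 1 library each, with bars for the 95% counting interval. MCM7 and MCM4 lie above 100 FPKM in both libraries and MCM10 is lowest, and MCM7 is the gene whose orange point lies below the grey one.

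Among the subunits of the ring, MCM4 and MCM6 were higher in the SETDB2 library and MCM7 was slightly lower. MCM4 and MCM6 belong with MCM7 to the part of the ring that shows helicase activity on its own in vitro. MCM4 (ENSG00000104738, chromosome 8, 47960185 to 47978160) had 25778 counts in control cells and 32126 with SETDB2 overexpression. Its log2 ratio was 0.31 (0.29 to 0.33), or 1.24-fold. Among the 296 genes with a summed count within a factor of 2 of its own, 97.6% had a lower ratio. MCM6 (ENSG00000076003, chromosome 2, 135839626 to 135876426) had 3567 and 4246 counts and a log2 ratio at 0.24 (0.18 to 0.31), which was above that of 92.5% of 3292 genes of like count. MCM7 (ENSG00000166508, chromosome 7, 100092728 to 100101940) had 24608 and 23752 counts and a log2 ratio at -0.06 (-0.08 to -0.03), which is 1.04-fold lower. It was the only one of the 10 genes below 0, its place among 383 genes of like count was the 24.8th percentile, and its sign turned when the dependence of the ratios on GC content was removed, as given below.

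MCM3 (ENSG00000112118, chromosome 6, 52264009 to 52284881) had 6832 and 7446 counts and a log2 ratio at 0.12 (0.07 to 0.17). MCM2 (ENSG00000073111, chromosome 3, 127598223 to 127622436) had 3576 and 3738 counts, and MCM5 (ENSG00000100297, chromosome 22, 35400063 to 35425430) had 3908 and 4092. Their log2 ratios were 0.06 (-0.01 to 0.12) and 0.06 (-0.0038 to 0.12), and both intervals include equality. MCM2, MCM3 and MCM5 make up the other part of the ring, and their ratios were smaller than those of MCM4 and MCM6, with intervals that did not reach those of these 2 genes. For MCM6 this separation was lost when the GC trend was removed, as given below.

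The factors outside the ring were all higher in the SETDB2 library. CDC6 (ENSG00000094804, chromosome 17, 40287633 to 40304657), the ATPase that loads the ring together with the origin recognition complex, had 1926 and 2441 counts. Its log2 ratio of 0.34 (0.25 to 0.42), or 1.26-fold, was the largest of the 10 and above that of 96.8% of 4567 genes of like count. GINS2 (ENSG00000131153, chromosome 16, 85676198 to 85690073), a subunit of the GINS complex, had 825 and 968 counts and a log2 ratio at 0.22 (0.09 to 0.36). CDC45 (ENSG00000093009, chromosome 22, 19479459 to 19520612) had 1277 and 1442 counts and a log2 ratio at 0.17 (0.06 to 0.28). MCM10 (ENSG00000065328, chromosome 10, 13161554 to 13211104) had 1087 and 1205 counts and a log2 ratio at 0.14 (0.02 to 0.26). The intervals of GINS2, CDC45 and MCM10 overlap one another, so no order among these 3 genes can be read from the counts.

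All 10 genes passed the count filter. The log2 ratio was above 0 for 9 of them, beside 50.4% of the 14518 genes kept and 54.8% of those with at least 1500 counts. For 7 the interval lay above equality, beside 26.3% of the genes kept. For 1, MCM7, it lay below, beside 24.7%. All 10 genes had at least 1500 counts summed over the libraries, and among the 7495 genes with as many these shares were 35.3% and 26.4%. A smaller rule of size asked for a log2 ratio of 0.3219 or more with its interval above equality. CDC6 alone passed it, beside 7.74% of all genes kept and 3.55% of those with at least 1500 counts, and MCM4, at 0.31, lay just under it. That count of 1 became 0 or 2 with other scalings of the libraries. None of the 10 was 2-fold higher or lower, beside 1.07% and 1.61% of the genes kept. The median log2 ratio of the 10 was 0.16, against 0.002 over all genes kept and 0.02 over the genes with at least 1500 counts. Summed, the 10 genes had 73384 and 81456 counts and a log2 ratio at 0.14 (0.13 to 0.16). Most of that difference came from MCM4, and the other 9 summed to 47606 and 49330 counts, with a ratio of 0.04 (0.03 to 0.06). In cultures such as these, a larger share of cells in S phase and more transcript per cell cannot be told apart.

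**Figure D2:**
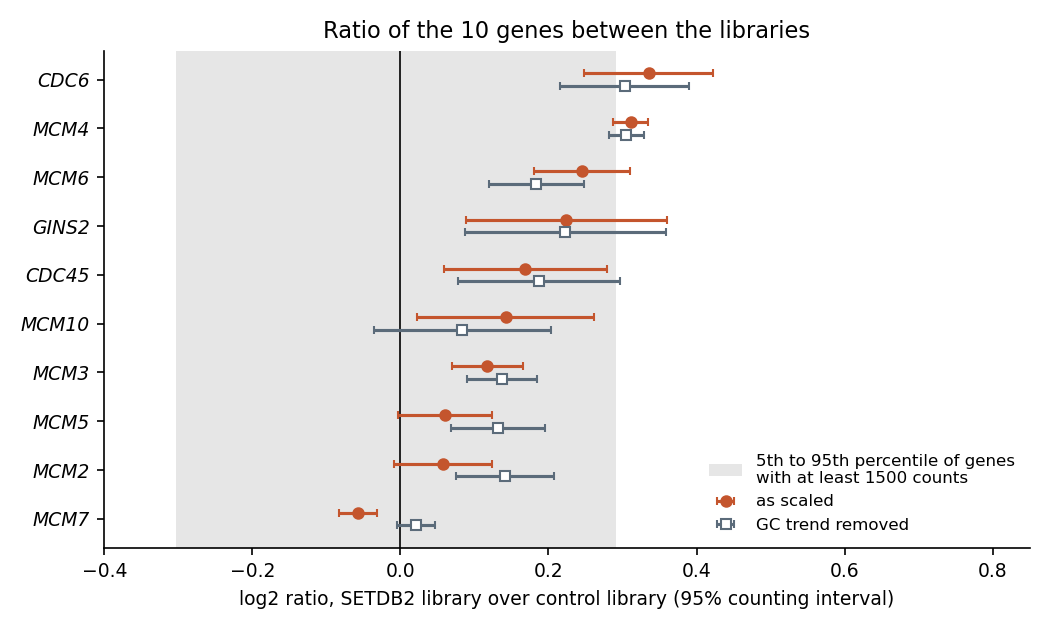
Log2 of SETDB2 over control for each gene, as scaled (orange circles) and with the GC trend removed (open squares), bars being 95% counting intervals. The grey band spans the 5th to 95th percentile of genes with at least 1500 counts, -0.30 to 0.29, and only CDC6 and MCM4 lie beyond it.

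Markers of dividing cells were also higher in the SETDB2 library. MKI67, which encodes the Ki-67 antigen, had a log2 ratio of 0.14 (0.11 to 0.17). TOP2A, a topoisomerase of dividing cells, had 0.31 (0.28 to 0.34), and PCNA, the sliding clamp of DNA polymerases, 0.26 (0.21 to 0.31). All 3 markers thus had an interval above equality, beside 35.3% of genes with at least 1500 counts. MKI67 lay near the 75th percentile of those genes, 0.13. The summed level of the 3 markers went from 233 to 280.1 FPKM. The part of a shift in dividing cells in the ratios of the 10 genes was not tested.

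Within the summed transcripts of the ring, MCM7 held a smaller share and MCM4 a larger one in the SETDB2 library. MCM7 made up 42.2% of the summed FPKM of MCM2 to MCM7 in control cells and 37.6% with SETDB2, and MCM4 27.8% and 31.96%. MCM7 exceeded MCM4 by 1.52 times in control cells and by 1.18 times with SETDB2. MCM3 kept about the same share, 14.1% and 14.2%, and MCM6 went from 6.51% to 7.15%. MCM2 had 5.48% and 5.29%, and MCM5 had 4.0% and 3.87%. Shares of the raw counts, which carry a counting interval, moved the same way for MCM4, from 37.8% (37.4 to 38.1) to 42.6% (42.3 to 43.0), and for MCM7, from 36.0% (35.7 to 36.4) to 31.5% (31.2 to 31.8). As raw counts put MCM4 above MCM7 in the control and FPKM put MCM7 above MCM4, which subunit led depended on the length used. The change of MCM7 relative to MCM4 could not depend on it, because each gene has 1 length for both libraries. The share of MCM3 changed by 0.08 points by FPKM and by -0.13 points by raw counts.

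**Figure D3:**
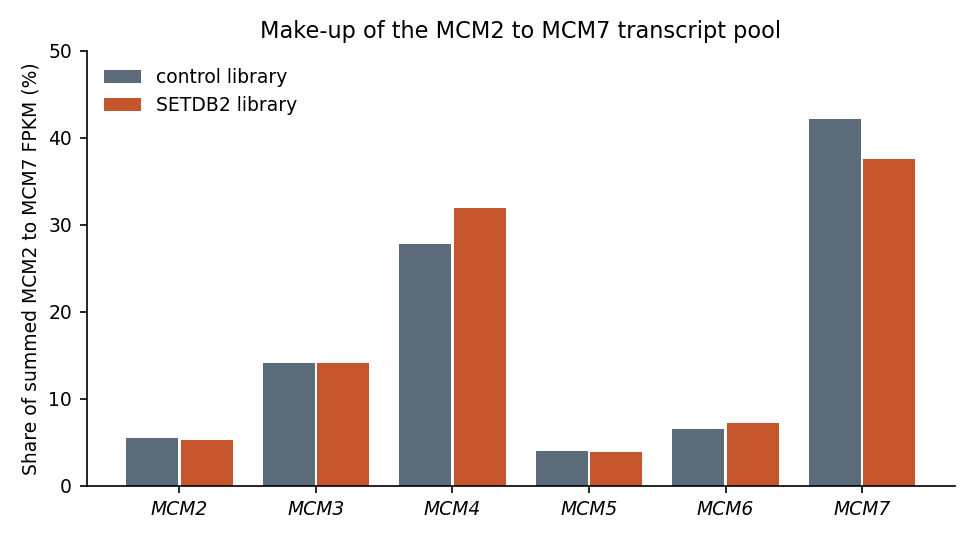
Share of each subunit in the summed FPKM of MCM2 to MCM7, in percent, in the control library (grey bars) and the SETDB2 library (orange bars), 1 library each. MCM7 stands at 42.2% and 37.6% and MCM4 at 27.8% and 31.96%, while the other subunits differ by less than 1 point.

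Ratios across the whole table followed the GC content of the transcripts, and the 10 genes were spread along it. Over the 10234 genes that had 500 or more counts, no independent replicates of one another, Spearman's rho of log2 ratio and GC content was -0.41. The median ratio was 0.13 in the tenth lowest in GC content and -0.13 in the tenth highest in it. MCM2, MCM7 and MCM5 had the highest GC content of the 10, at 58.1%, 57.6% and 57.0%, and also the lowest ratios. MCM6, MCM10 and CDC6 had the lowest GC content, at 43.1%, 43.3% and 45.5%. Over the 10 genes, which share both libraries, rho was -0.81.

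With the trend removed the 10 genes drew closer together and each lay above 0, between 0.02 and 0.30, with a median of 0.16. The interval lay above equality for 8 of them. The shares of all genes kept above 0 and with an interval above equality were not computed with the trend removed. MCM7 went to 0.02 (-0.01 to 0.05), no longer below equality. MCM2 went to 0.14 (0.07 to 0.21) and MCM5 to 0.13 (0.07 to 0.20), now apart from equality, while MCM10 went to 0.08 (-0.04 to 0.20). MCM6 went to 0.18 (0.12 to 0.25) and MCM3 to 0.14 (0.09 to 0.18), and the intervals of MCM6, MCM2, MCM3 and MCM5 then overlapped. CDC6 and MCM4 kept the largest ratios, each at 0.30. With 1 library each, a trend from the cells and one from the preparation of a library cannot be told apart.

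**Figure D4:**
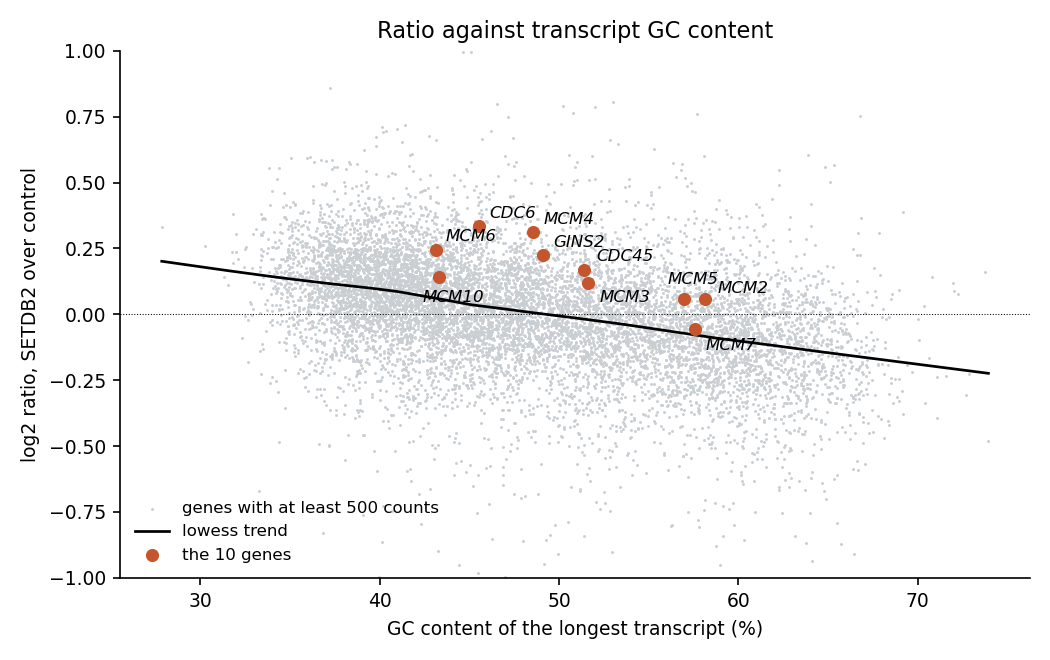
Log2 ratio against the GC content of the longest transcript in percent, for 10234 genes with at least 500 counts (grey points), with the lowess trend (black line) and the 10 genes (orange). The axis leaves out 27 genes beyond 1 in either direction, and each of the 10 genes lies above the trend line, MCM7 by 0.02 and CDC6 and MCM4 by 0.30.

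Promoter windows were looked up for the 10 genes, because E2F factors act on many replication genes. RefSeq windows on GRCh38.p14, from 250 bases before to 50 after a start, were found for 8 of them, and the first listed window of each gene was used. Those of MCM4 and MCM5 were not used here. The E2F motif was searched as TTTCCCGC, TTTCGCGC, TTTGCCGC and TTTGGCGC on both strands. It was present in 6 of the 8 windows, those of MCM2, MCM3, MCM6, MCM7, GINS2 and CDC6, and in 3.33% of the 27305 windows of all genes. The CCAAT box, searched on both strands by those 5 letters, was present in 7 of the 8, MCM2 being the exception, and in 35.7% of all windows. The CHR element, TTTGAA on either strand, was in 0 of the 8 windows and in 15.4% of all. A match is a run of letters and not a measured binding site. MCM7 held an E2F match, and MCM10 and CDC45 held none of the searched 8-letter forms. Near forms were not searched, so sites of the E2F type may be present in windows without a match. A link between matches and ratios was not tested.

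The windows of MCM7, with the lowest ratio, and CDC6, with the largest, are shown with those of MCM2 and MCM6, in which matches on both strands overlap. Capitals mark the E2F matches, and each window is read 5′ to 3′ on the strand of its gene. In MCM6 the same 12 letters stand at 2 places, from -152 and from -90 relative to the start. In MCM7 matches begin at -187 and -9, in CDC6 at 7 and in MCM2 at 2. The windows are chr2:135876394-135876693 (minus strand) for MCM6, chr3:127598161-127598460 (plus strand) for MCM2, chr7:100101348-100101647 (minus strand) for MCM7 and chr17:40287629-40287928 (plus strand) for CDC6.
MCM6: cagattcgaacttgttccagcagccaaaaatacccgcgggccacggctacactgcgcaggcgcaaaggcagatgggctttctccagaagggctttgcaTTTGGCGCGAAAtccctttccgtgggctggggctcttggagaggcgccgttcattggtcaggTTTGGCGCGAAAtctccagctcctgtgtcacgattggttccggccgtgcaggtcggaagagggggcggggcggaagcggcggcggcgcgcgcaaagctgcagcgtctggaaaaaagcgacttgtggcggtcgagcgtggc
MCM2: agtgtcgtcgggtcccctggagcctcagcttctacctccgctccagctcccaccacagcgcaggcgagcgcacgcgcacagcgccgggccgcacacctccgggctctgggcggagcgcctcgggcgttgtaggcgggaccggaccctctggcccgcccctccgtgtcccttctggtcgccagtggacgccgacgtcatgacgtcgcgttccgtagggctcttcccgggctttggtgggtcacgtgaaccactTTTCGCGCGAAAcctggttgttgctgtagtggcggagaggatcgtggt
MCM7: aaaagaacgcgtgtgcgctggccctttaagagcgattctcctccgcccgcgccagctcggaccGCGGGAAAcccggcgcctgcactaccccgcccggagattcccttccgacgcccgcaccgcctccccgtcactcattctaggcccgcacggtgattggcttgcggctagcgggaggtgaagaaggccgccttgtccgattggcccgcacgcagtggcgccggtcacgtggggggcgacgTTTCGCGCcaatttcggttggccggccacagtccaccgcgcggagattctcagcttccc
CDC6: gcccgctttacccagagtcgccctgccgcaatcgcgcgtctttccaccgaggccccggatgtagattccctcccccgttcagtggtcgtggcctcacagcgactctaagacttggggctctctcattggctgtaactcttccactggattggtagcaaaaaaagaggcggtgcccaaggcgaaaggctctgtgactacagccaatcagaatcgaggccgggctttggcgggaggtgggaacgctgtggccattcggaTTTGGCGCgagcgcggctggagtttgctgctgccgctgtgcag

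Several of the 10 genes start beside another gene on the opposite strand, and these neighbours did not all share their ratios. Starts are here the ends of the deposited gene spans, which can differ from the RefSeq starts of the promoter windows. PRKDC, the catalytic subunit of DNA-dependent protein kinase, starts 2 bases from MCM4. It had 157074 and 157609 counts and a log2 ratio at -0.0016 (-0.01 to 0.01), whereas that of MCM4 was 0.31. TPRA1 starts 44 bases from MCM2, with 1207 and 1173 counts and a log2 ratio at -0.05 (-0.16 to 0.07). AP4M1, a subunit of an adaptor complex of vesicle transport, starts 391 bases from MCM7 and had 520 and 579 counts and a log2 ratio at 0.15 (-0.02 to 0.32). UFD1, a cofactor of the segregase VCP, starts 244 bases from CDC45 and had 1715 and 1891 counts and a log2 ratio at 0.13 (0.04 to 0.23), with an interval that overlaps that of CDC45.

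The spans of some neighbours overlap those of the 10 genes, and the strand setting of the counting is not given in the sources used here, so reads from the shared bases cannot be told apart. The shared span was 45 bases for MCM2 and TPRA1, 392 for MCM7 and AP4M1, and 7 for GINS2 and GSE1, which had 2349 and 2521 counts. AC023593.1, an antisense gene over the end of MCM2, shared a span of 2331 bases with it and had 12 and 9 counts. The microRNA genes MIR25, MIR93 and MIR106B lie within MCM7, outside its exons. They had 46 and 47, 8 and 12, and 13 and 24 counts, with intervals that include equality, and counts from such libraries do not measure mature microRNAs. Of the 75-base pieces of their transcripts, 82.6% were found in no other gene for MCM2, 94.7% for MCM7 and 99.8% for MCM4, and 100% for the other 7.

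Other genes of licensing lay close to the 10. Of 10 genes of origin recognition and licensing, 9 lay above 0, with none past the rule of 0.3219 in either direction. For 8 the interval lay above equality (80.0%, beside 26.3% of all genes kept and 35.3% of those with at least 1500 counts). The median log2 ratio was 0.17, and 0.13 with the GC trend removed. ORC4 and ORC1, subunits of the origin recognition complex, had 0.24 (0.12 to 0.37) and 0.23 (0.09 to 0.37). ORC6 had 0.20 (0.10 to 0.30) and GMNN, which encodes the CDT1 inhibitor geminin, 0.18 (0.06 to 0.29). CDT1, the MCM carrier, was outside these 4 genes of the largest size and is named after its value was seen, with 2511 and 2502 counts and a log2 ratio at -0.01 (-0.09 to 0.07), which went to 0.13 with the GC trend removed.

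Genes that activate the loaded helicase were mixed. Of 15 genes, 11 lay above 0, 4 had an interval above and 1 an interval below equality, and the median was 0.05. Those 4 genes are 26.7% of the list, near the 26.3% of all genes kept and below the 35.3% of those with at least 1500 counts. DBF4, the activating subunit of the CDC7 kinase that acts on loaded MCM rings, had 2613 and 3420 counts and a log2 ratio at 0.38 (0.31 to 0.46). As scaled, this was above that of any of the 10 genes, though its interval overlaps that of CDC6. With the GC trend removed DBF4 went to 0.287, below CDC6 at 0.303 and MCM4 at 0.305. DONSON, a factor that delivers GINS to the ring, had 633 and 827 counts and a log2 ratio at 0.38 (0.23 to 0.53). As scaled, DBF4 and DONSON were the 2 genes of the list past 0.3219, beside 7.74% of all genes kept. MTBP had 0.21 (0.14 to 0.28), while its partner TICRR, with which it acts in origin firing, had 826 and 737 counts and a log2 ratio at -0.17 (-0.32 to -0.03). With the GC trend removed DONSON went to 0.33, MTBP to 0.09 and TICRR to -0.15, and the median of the list was 0.07.

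Of 25 genes of DNA synthesis and fork progression, 19 lay above 0, beside 50.4% of all genes kept. For 13 the interval lay above equality (52.0%, beside 26.3% of all genes kept and 35.3% of those with at least 1500 counts). For 1 it lay below. The median was 0.10, also with the GC trend removed. TIPIN, of the fork protection complex, had 0.32 (0.15 to 0.50) and was the 1 gene past the rule of 0.3219, beside 7.74% of all genes kept. It passed only just, at 0.3228, and went to 0.24 with the GC trend removed. WDHD1, which links the helicase to DNA polymerase alpha, had 0.28 (0.19 to 0.37), and PRIM2, the large primase subunit, 0.23 (0.09 to 0.36). PCNA, also in this list, is given above.

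A list of MCM relatives and of proteins linked to them, all outside the replicative ring, had ratios in both directions. MCM8 had 3329 and 3790 counts and a log2 ratio at 0.18 (0.11 to 0.25), and its partner MCM9, with which it acts in homologous recombination, had 528 and 407 counts and a log2 ratio at -0.38 (-0.57 to -0.19). MCMDC2 had 58 and 39 counts and a log2 ratio at -0.57 (-1.20 to 0.03). MCM3AP, which encodes a protein of mRNA export and is not itself of the MCM family, had -0.08 (-0.15 to -0.02). Of the 5 genes in this list 2 lay above 0 and 3 below. The median of -0.08 was the value of MCM3AP. It rested on the presence of MCMDC2, the gene with fewest counts, and went to -0.0050 without MCMDC2. MCM9 was the 1 gene past the same rule below 0, beside 10.5% of the genes kept.

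**Figure D5:**
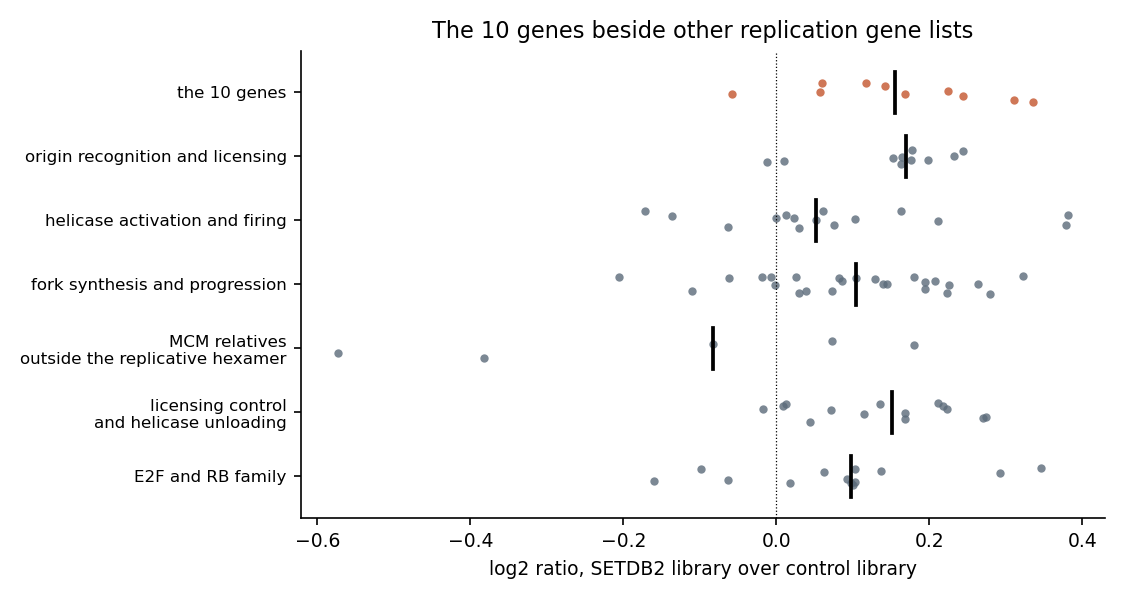
Log2 of SETDB2 over control for the 10 genes (orange) and for the genes of 6 other replication lists (grey), 1 point per gene, with a black bar at each median. The medians run from -0.08 for the list of MCM relatives and linked proteins to 0.17 for origin recognition and licensing, and that of the 10 genes is 0.16.

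Over the lists, the genes whose ratio lay nearest to the median of the 10 were MCMBP, a binding protein of MCM rings, at 0.15 (0.10 to 0.21), GINS1, a further GINS subunit, at 0.16 (0.08 to 0.24), and KAT7, a histone acetyltransferase that acts at origins, at 0.16 (0.07 to 0.26). This likeness rests on 1 ratio over 2 libraries. With the GC trend removed MCMBP and GINS1 both went to 0.08 and KAT7 to 0.13, while the median of the 10 stayed at 0.16.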

How the data were processed

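For each of 2 libraries the authors deposited whole-number counts of reads by gene, and FPKM values. The submitters' processing notes name TopHat2 2.0.9, Bowtie2 2.0.6, Cuffdiff 2.1.1 and Cufflinks 2.1.1, without their roles, and the counting program and its strand setting were not given in the sources used here. Within each library the deposited FPKM was the deposited count divided by gene length and by 1 constant, so it is no separate measurement. Gene IDs were matched to GENCODE release 29 for transcript length and GC content.

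Counts were scaled with edgeR 4.0.16 TMM factors (R 4.3.3), and the log2 ratio used a prior count of 0.5. Its 95% interval is the exact Clopper-Pearson interval of 2 counts, and FPKM intervals are exact Poisson intervals. They cover counting error only, since reads copied in amplification are not independent molecules. No p-value was computed. Kept were genes of 50 or more counts over both libraries together and 1 or more CPM in either. A gene was called higher or lower at a log2 ratio of 0.3219 (the smaller rule) or 1 (2-fold) in size, with its interval excluding equality. These are rules of size, not tests. The GC trend was a lowess fit (fraction 0.3, statsmodels 0.14.6) over genes with at least 500 counts. The calculation was tested on simulated data. Alternatives used DESeq2 1.42.0 size factors, other scalings, filters, prior counts and lengths.

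Named were the 10 members, SETDB2, in each list the 4 kept genes of largest absolute ratio, neighbouring or overlapping genes, and the 3 list genes nearest to the members' median. The cell type markers were named as well, except 1 that is not reported here. The members, lists and rules were chosen with earlier results of these data known. A planned search of protein motifs was not run.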

Additional observations from a re-analysis of the deposited data

How the results depend on the processing

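Apart from subunit shares, 134 values were recomputed under other settings, and 127 counted as unchanged. Some of the 127 could not change. The 10 genes, and every list apart from that of the MCM relatives, held the same genes under each filter, so their medians were identical. Deposited FPKM, the count over length and a constant, amounted to another scaling. For a gene's ratio the limit was the mean distance from it to the ends of its counting interval. For the median of a list or of the 10 genes, it was the median of these distances over their genes. The median of all genes kept had a fixed limit, and counts had 1.5 times. For medians this is a wide limit, as that of the E2F and RB families counted as unchanged at 0.0420 against 0.0984. The median log2 ratio of the 10 genes ran from 0.14 (total counts as scaling) to 0.20 (MCM2 and MCM7 left out, chosen after seeing the data, as was leaving out MCM4, which gave 0.14). The number of genes with an interval above equality ran from 7 to 9. The number at a log2 ratio of 0.3219 or more was 0 with total counts (CDC6 at 0.3213) and with the GC trend removed, and 2 with upper quartile factors. With the GC trend removed MCM7 reversed to 0.0207, and MCM2 and MCM5 moved to 0.14 and 0.13. With no filter other than a summed count of at least 1, 1842 genes had a ratio of 0.3219 or more with an interval above equality, against 1123. The medians of the 6 lists kept their direction under the scalings, filters and prior counts tried and with the GC trend removed. That of the MCM relatives and linked proteins went to -0.0050 when MCMDC2 fell out at a summed count of 200. With the GC trend removed the medians of the E2F and RB families, the list of MCM relatives and licensing control went to 0.04, -0.05 and 0.11. Without MCM4, chosen after seeing the data, the ratio of the summed counts was 0.04.

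Shares of MCM2 to MCM7 depend on length. From raw counts they were 5.24%, 10.01%, 37.76%, 5.72%, 5.22% and 36.05% in the control, and 4.96%, 9.88%, 42.61%, 5.43%, 5.63% and 31.50% in the SETDB2 library, in the order MCM2 to MCM7. With the longest transcript as length, chosen after seeing the data, those of MCM2 to MCM6 were 5.18%, 11.17%, 32.33%, 4.46% and 5.01% in the control. In the SETDB2 library those of MCM2 to MCM7 were 4.97%, 11.18%, 36.99%, 4.29%, 5.47% and 37.10%. Depth limits GINS2, the gene with fewest counts, most, with an interval of 0.09 to 0.36. No paired analysis was possible because each group held 1 library, and no library could be left out for the same reason.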

Other observations

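A further list held 14 genes that limit licensing to once per cycle or take the helicase off the DNA. Of these 13 lay above 0, none had a ratio of 0.3219 or more in either direction with its interval, and the median log2 ratio was 0.15. For 8 the interval lay above equality (57.1%, beside 26.3% of all genes kept and 35.3% of those with at least 1500 counts). With the GC trend removed 11 lay above 0 and the median was 0.11. FBXO5, the inhibitor of the anaphase-promoting complex, had 1686 and 2048 counts and a log2 ratio at 0.27 (0.18 to 0.37), and cyclin A2, CCNA2, had 2928 and 3546 counts, also 0.27 (0.20 to 0.34). DTL, the substrate receptor through which CDT1 is degraded in S phase, had 0.22 (0.15 to 0.30), and CUL2, the scaffold of the ubiquitin ligase that acts on the helicase at termination, 0.22 (0.13 to 0.31).

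Of 13 genes of the E2F and RB families 10 lay above 0. For 6 the interval lay above equality (46.2%, beside 26.3% of all genes kept and 35.3% of those with at least 1500 counts), and for 1 below. The median was 0.10. With the GC trend removed 9 lay above 0 and the median was 0.04. E2F2, an activator, had 281 and 359 counts and a log2 ratio at 0.35 (0.12 to 0.58). It was the 1 gene of the 13 at 0.3219 or more, about the share of all genes kept, 7.74%. E2F8, an atypical repressor, had 0.29 (0.11 to 0.47), E2F4, a repressor in resting cells, -0.16 (-0.23 to -0.09), and RB1 0.14 (0.06 to 0.21). The last 2 went to -0.06 and 0.02 with the GC trend removed.

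Genes with and without an E2F match in their promoter window had similar median ratios. Of 10242 kept genes with a window, 540 held a match, and 52.96% of them lay above 0, against 52.0% of the 9702 without. The median log2 ratios were 0.01 in both groups, and 0.01 among the 534 with a match left after the 10 genes were set aside. This comparison was chosen after seeing the data and was not tested.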
